A study of Mus musculus with 24 samples.

Results

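The 50 genes described here serve entry into mitosis, the spindle, the kinetochore, chromosome condensation and cell division. They were taken from a list of gene symbols, grouped by role, and measured in B16 melanomas of untreated mice and of mice given T cells that did or did not carry interleukin 12 (IL-12). Each was read from a probeset that the array annotation assigns to a single gene, and where a gene had more than 1 such probeset the brightest was used. All 50 had such a probeset, out of 19938 genes tested. Only Top2a had a second one.

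Total RNA from single-cell suspensions of the tumours was measured on Affymetrix whole-transcript arrays, 24 in all, in 6 groups of 4. Per the labels, mice aged 6 to 12 weeks received 500000 B16 cells under the skin. Untreated mice are labelled as having had no treatment after that, and neither T cells nor irradiation is stated for them. Treated mice received 5 Gy of total body irradiation 10 to 14 days after the tumour cells, together with 100000 pmel-1 CD8+ T cells, whose receptor recognises a peptide of the melanocyte protein encoded by Pmel. In the Mock arm these cells had no transduction, and in the IL-12TD arm they had been transduced with IL-12. Tumours of each arm were taken at day 3 or day 7, counted from the treatment. The strain is not stated, and the labels call the samples biological replicates without saying whether each came from a separate mouse, so the p-values measure the spread between these samples. Irradiation and T cell transfer went together, so they cannot be told apart between untreated and Mock tumours. No batch or scan date is given, and batch cannot be told apart from day.

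Values are log2 intensities, on which a difference of 1 is a doubling. Differences are log2 differences ± SE from limma, and every group has n = 4. A gene was called where the Benjamini-Hochberg adjusted p over all 19938 genes was under 0.05, and an adjusted p below always means this one. The array number limits the precision. The melanocyte genes that mark B16 cells were measured in every group, with group means of 11.45 to 11.76 for Pmel and 12.50 to 12.81 for Dct. Arrays of 1 group correlated at r = 0.962 or more over the tested genes. Mock day 7 replicate 1 and untreated day 7 replicate 3 stood apart from their groups, and counts without both are given. The spread of all genes differed too, with a mean interquartile range of 2.76 in untreated and Mock tumours at day 3 and of 2.26 in IL-12TD tumours at day 3. The day 7 ranges were 2.40 in untreated, 2.22 in Mock and 2.45 in IL-12TD tumours, so the spread moved both with the day 3 difference and with the change by day in Mock tumours. A second quantile normalization, which removes this difference in spread, was run on every comparison, and the counts that it changed are given.

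Dividing cells make most mitotic transcripts late in the cell cycle. Cdk1 bound to a cyclin opens mitosis. Kinesins and other microtubule proteins build the spindle, and kinetochores tie each chromosome to it. The spindle checkpoint holds back separase until every chromosome is attached, and cytokinesis then parts the daughter cells. In tumours these transcripts are widely used as a measure of how many cells are dividing. In bulk RNA, fewer cells of a type and less RNA per cell cannot be told apart.

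Many promoters of these genes carry a cell cycle genes homology region (CHR), bound by the DREAM and MuvB complexes, and CCAAT boxes, bound by NF-Y. The 250 bases before a RefSeq start (mouse build GRCm38.p6) were searched on both strands for the CHR as TTTGAA or TTCGAA and for CCAAT. The first reads TTCAAA on the other strand, the second reads the same on both strands, and the third reads ATTGG. Windows were held for 42 members, some with more than 1 start, and for Aurkb, Ccna2, Dlgap5, Incenp, Kif20a, Smc4, Spc24 and Tpx2 none was held. The windows below belong to the 8 genes with the largest fall in IL-12TD tumours at day 3 among those with either form of the CHR. They are printed so that the motif letters can be seen beside those falls. Being picked for holding the CHR, they cannot show whether it goes with the fall. The windows of Ect2, Kif2c and Ncapd2 lie wholly within the annotated bounds of the gene. Those of Bub1b, Ncapg, Espl1 and Prc1 end within them. All of these windows thus precede a start that is not the outermost one of that gene, and among those printed only the Kif11 window precedes the outermost start. The CHR of Ncapg, Espl1 and Prc1 lay inside the annotated gene. The other Prc1 window, which ends further upstream, held no CHR. Capitals mark the CHR and the CCAAT letters, and each line runs 5′ to 3′ on the strand of the gene.

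Ect2, minus strand, chr3:27153855-27154104: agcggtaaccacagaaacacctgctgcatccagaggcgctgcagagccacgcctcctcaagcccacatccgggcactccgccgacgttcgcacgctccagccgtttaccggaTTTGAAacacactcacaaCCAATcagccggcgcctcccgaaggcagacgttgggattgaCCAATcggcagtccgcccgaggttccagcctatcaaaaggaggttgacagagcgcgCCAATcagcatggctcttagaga
Kif2c, minus strand, chr4:117178773-117179022: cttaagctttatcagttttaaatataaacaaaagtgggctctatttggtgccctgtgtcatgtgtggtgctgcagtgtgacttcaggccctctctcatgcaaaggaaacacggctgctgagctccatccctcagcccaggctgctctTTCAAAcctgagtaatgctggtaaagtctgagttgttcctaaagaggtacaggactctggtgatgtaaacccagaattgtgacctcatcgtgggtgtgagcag
Ncapd2, minus strand, chr6:125191587-125191836: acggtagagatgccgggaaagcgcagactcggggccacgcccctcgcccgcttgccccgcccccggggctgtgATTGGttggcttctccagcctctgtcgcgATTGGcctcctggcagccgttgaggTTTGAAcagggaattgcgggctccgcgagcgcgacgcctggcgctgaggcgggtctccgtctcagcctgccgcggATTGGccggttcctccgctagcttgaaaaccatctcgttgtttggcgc
Bub1b, plus strand, chr2:118597961-118598210: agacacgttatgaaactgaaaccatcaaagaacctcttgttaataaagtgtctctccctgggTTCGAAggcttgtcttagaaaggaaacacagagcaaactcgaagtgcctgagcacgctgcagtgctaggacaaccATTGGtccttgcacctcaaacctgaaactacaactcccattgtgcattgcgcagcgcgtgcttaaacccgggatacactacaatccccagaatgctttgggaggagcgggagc
Kif11, plus strand, chr19:37376132-37376381: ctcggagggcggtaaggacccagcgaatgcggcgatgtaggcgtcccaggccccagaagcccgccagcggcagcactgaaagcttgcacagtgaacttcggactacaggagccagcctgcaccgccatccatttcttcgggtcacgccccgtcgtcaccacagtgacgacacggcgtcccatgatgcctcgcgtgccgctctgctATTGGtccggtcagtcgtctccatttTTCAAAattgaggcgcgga
Ncapg, plus strand, chr5:45669675-45669924: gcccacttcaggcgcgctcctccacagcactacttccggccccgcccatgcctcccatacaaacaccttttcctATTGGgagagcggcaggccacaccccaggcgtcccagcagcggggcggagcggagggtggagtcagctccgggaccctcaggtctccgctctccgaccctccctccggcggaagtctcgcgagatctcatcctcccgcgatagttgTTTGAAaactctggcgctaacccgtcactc
Espl1, plus strand, chr15:102296043-102296292: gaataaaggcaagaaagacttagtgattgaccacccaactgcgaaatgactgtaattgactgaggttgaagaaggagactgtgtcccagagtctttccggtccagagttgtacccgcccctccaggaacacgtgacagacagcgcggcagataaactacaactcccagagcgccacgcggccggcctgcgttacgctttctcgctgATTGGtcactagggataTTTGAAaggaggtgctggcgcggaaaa
Prc1, plus strand, chr7:80294226-80294475: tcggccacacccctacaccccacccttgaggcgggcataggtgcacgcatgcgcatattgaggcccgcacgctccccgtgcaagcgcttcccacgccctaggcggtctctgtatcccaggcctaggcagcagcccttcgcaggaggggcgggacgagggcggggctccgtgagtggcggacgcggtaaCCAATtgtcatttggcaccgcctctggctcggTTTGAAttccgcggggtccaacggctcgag

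Either form of the CHR was held by 18 of the 45 member windows and by 14.79% of the 19177 windows of all tested genes. TTTGAA alone stood in 35.56% of member windows and 13.38% of all windows, and TTCGAA in 6.67% and 1.59%. CCAAT stood in 73.33% of member windows against 34.54%, and 2 or more copies in 42.22% against 11.06%. CHR and CCAAT together were in 35.56% against 5.35%, and in no member window did their letters overlap. In 9 of the 45 member windows, against 2.64% of all windows, the CHR began within 60 bases of the start, a window set after the positions had been seen. Those were the windows of Kif11, Ncapg, Espl1, Prc1, Kif22, Kif15, Cdk1, Top2a and Cdc20. In Espl1 the CHR began 27 bases before the start and the CCAAT letters 44 bases before it. In Kif11 these distances were 19 and 45 bases. Anln, which had the largest fall of the 50 genes, held neither motif in this window. Racgap1 (-1.87), Bub1 (-1.86), Kif4 (-1.78) and Ncaph (-1.75) also had large falls and held no CHR. Cdc20 (-0.72) and Top2a (-0.91) held it with smaller falls. These matches are descriptions of letters, without a test.

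The mean over the 50 genes was lowest in IL-12TD tumours on both days. It was 7.26 ± 0.10 (SD, n = 4) in untreated, 7.29 ± 0.09 in Mock and 5.99 ± 0.05 in IL-12TD tumours at day 3. At day 7 it was 6.83 ± 0.10 in untreated, 6.57 ± 0.22 in Mock and 6.04 ± 0.04 in IL-12TD tumours. Thus the level in IL-12TD tumours was about the same on both days (5.96 to 6.07 and 5.99 to 6.07), while both comparison arms stood lower at day 7. Untreated and Mock arrays overlapped on each day. The arrays of both IL-12TD groups overlapped too, and lay below all others. Of the 50 genes, 24 had their lowest group mean in IL-12TD tumours at day 3, 24 in IL-12TD tumours at day 7 and 2 in Mock tumours at day 7. The highest group mean lay in Mock tumours at day 3 for 24 genes and in untreated tumours at day 3 for 18.

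**Figure D1:**
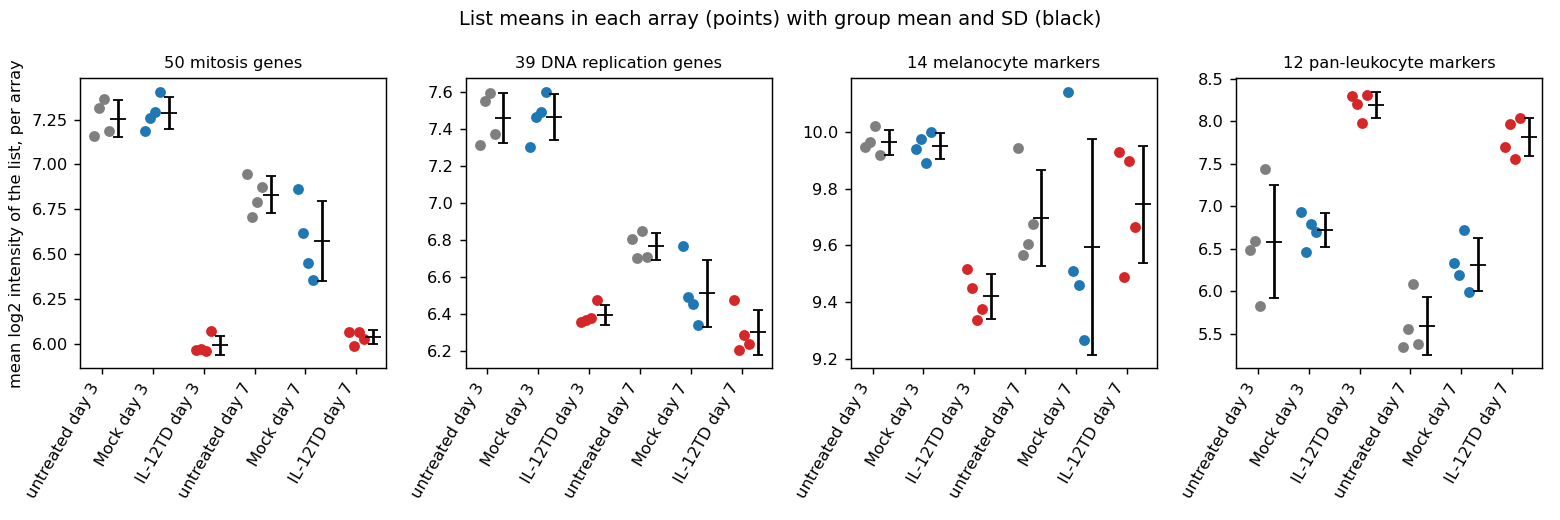
Mean log2 intensity of each gene list in each of the 24 arrays (points), with the group mean and SD in black, for the 50 mitosis genes, 39 DNA replication genes, 14 melanocyte markers and 12 pan-leukocyte markers. The mitosis mean falls from 7.29 in Mock to 5.99 in IL-12TD tumours at day 3, and from 6.57 to 6.04 at day 7.

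IL-12TD tumours were set against Mock tumours to ask what the IL-12 transduction of the transferred cells changed. Mock cells had no transduction, so the transduction itself and IL-12 cannot be told apart here. At day 3, 48 of the 50 genes were lower and none was higher, where 25.9% of all genes were called lower and 17.3% higher. The median difference over the 50 genes was -1.30, against 0.02 over all genes. At least 2-fold lower were 39 of the 50, against 3.1% of all genes. In 48 genes every IL-12TD array lay below every Mock array, as in 25.1% of all genes. Against untreated tumours at day 3, 48 genes were also lower (median -1.28) and none was higher, where 25.8% of all genes were called lower and 16.1% higher. The IL-12TD arrays are shared by both comparisons. The 2 genes not called against Mock were Spc24 and Cep152. The second quantile normalization left 45 genes called lower, against Mock and against untreated tumours alike, and lost Cdc20, Birc5 and Smc4 in both. Of all genes, 28% and 28.4% were then called in either direction.

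Day 7 showed the same direction with smaller differences. Lower in IL-12TD than in Mock tumours were 33 of the 50 genes and 1 was higher, where 8.83% of all genes were called lower and 12.9% higher. The median difference was -0.57, against -0.08 over all genes. Only Cdca8 and Cep152 were lower by at least 2-fold, with Cdc20 just short of it, and 0.246% of all genes reached this size. In 29 genes every IL-12TD array lay below every Mock array, against 11.3% of all genes. Without both arrays that stood apart, 31 genes were lower and 2 higher, with 30.6% of all genes called in either direction. After the second quantile normalization 39 were lower and 1 higher, with Ccna2, Mad2l1, Kif11, Kif20a, Kif23, Ncapg and Ect2 gained and Ttk lost. There 24.4% of all genes were called in either direction. Against untreated tumours at day 7, 46 genes were lower (median -0.78) and none was higher, beside 8.61% of all genes lower and 11.8% higher. Without both arrays that stood apart this count was 45, and after the second quantile normalization it was 47. The shares of all genes called in either direction were then 19.9% and 22.5%. Of the 50 genes, 31 were lower than in Mock on both days, 17 at day 3 only and 2 at day 7 only, against 3.25%, 22.6% and 5.58% of all genes.

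**Figure D2:**
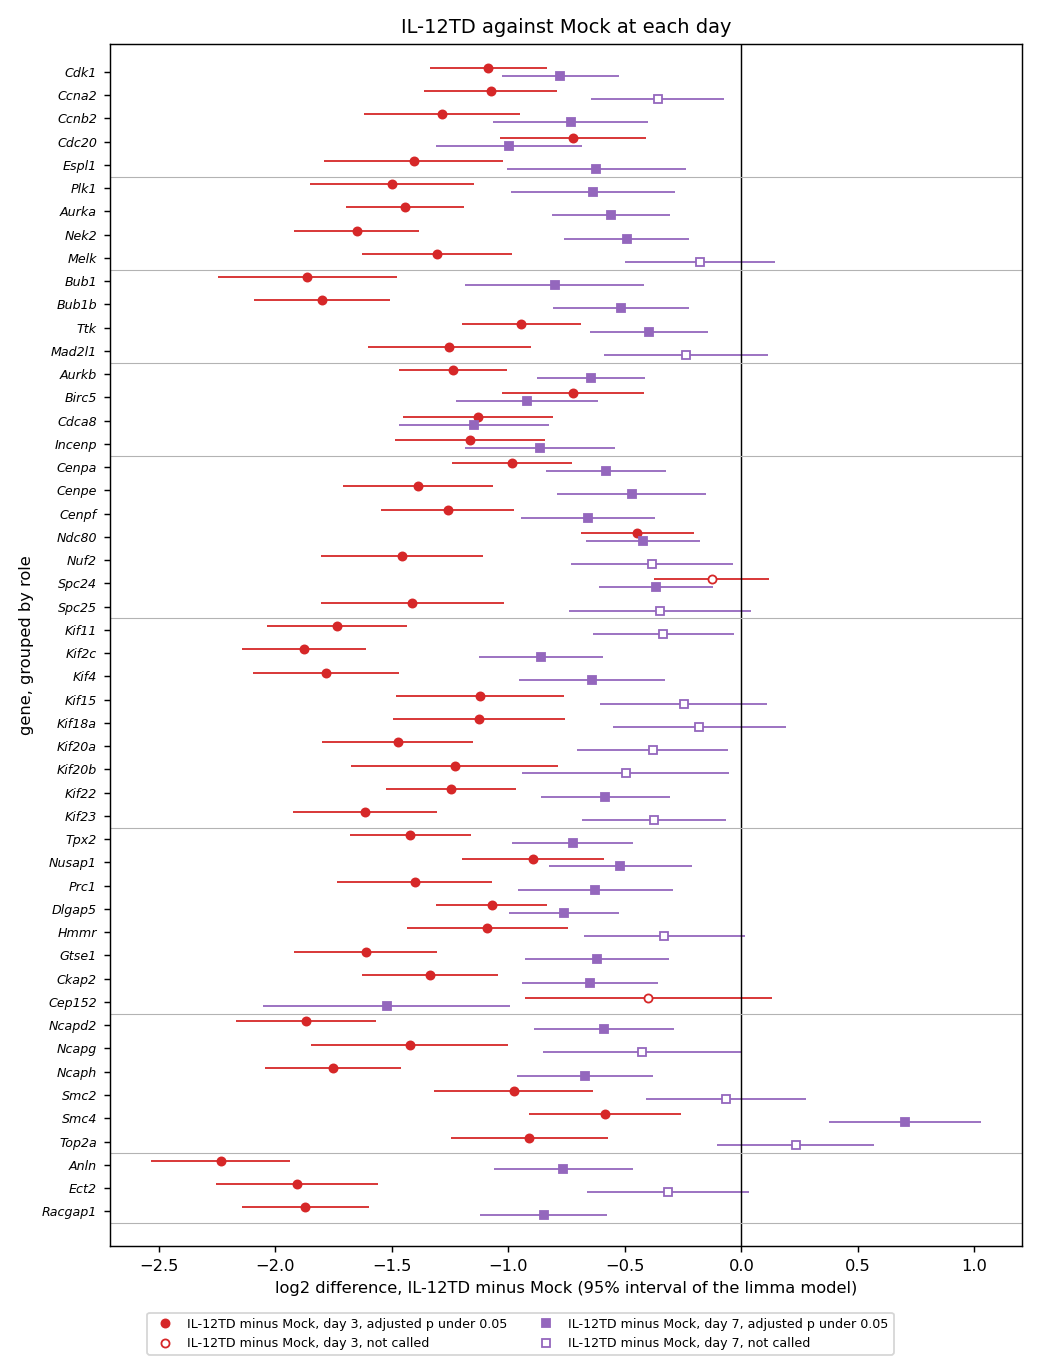
Log2 difference of IL-12TD minus Mock for each of the 50 genes at day 3 (circles) and day 7 (squares), grouped by role, with 95% intervals of the limma model; filled symbols were called. Day 3 values reach -2.24 for Anln, most day 7 values lie nearer to 0, and Smc4 lies above 0 at day 7.

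The change of each arm between the days was different in size. In Mock tumours 39 genes were lower at day 7 than at day 3 and 2 were higher, Cep152 and Incenp, where 27.1% of all genes were called lower and 23.8% higher. The median change was -0.80 against 0.08 over all genes, and 17 of the 50 fell at least 2-fold, as did 6.37% of all genes. In untreated tumours 35 genes were lower and 4 higher (Cep152, Incenp, Kif15 and Cenpe), where 24.2% of all genes were lower and 11.3% higher, with a median of -0.56. In IL-12TD tumours 13 were lower and 12 higher, close to the 21.6% and 20.2% of all genes, with a median of 0.00. Under the second quantile normalization the calls were 33 lower and 3 higher in Mock tumours, where 36.4% of all genes were called in either direction, and 21 lower and 5 higher in untreated tumours, beside 27% of all genes. The median changes were then -0.54 in Mock and -0.32 in untreated tumours. In IL-12TD tumours 17 were then lower and 12 higher, beside 41.5% of all genes called in either direction. The calls lost in Mock tumours were those of Cdc20, Aurkb, Prc1, Dlgap5, Ncapg and Ncapd2, and Cenpf was called higher. Ncapd2, called lower in Mock tumours at -0.39, was then at 0.09 and not called. Without both arrays that stood apart, 40 genes were lower and 2 higher in Mock tumours, and 32 lower and 6 higher in untreated tumours, beside 54.6% and 37.6% of all genes called in either direction. Marker lists were read between the days as well, where 24.2% of all genes were lower in untreated and 27.1% in Mock tumours. Of 12 pan-leukocyte markers 9 were lower by day in untreated and 3 in Mock tumours, the latter close to the share of all genes. Of 14 melanocyte markers 6 and 5 were lower, and Oca2 was higher in Mock tumours (0.65). The T cell list mean was 4.60 to 4.89 in Mock arrays at day 3 and 5.00 to 5.20 at day 7. That of the neutrophil markers was 4.15 to 4.28 and 4.25 to 4.74. Of 8 endothelial markers 7 were lower in untreated and 5 in Mock tumours, with a list mean of 5.87 to 6.10 in Mock arrays at day 3 and 5.29 to 5.52 at day 7. Of 5 erythroid markers 3 were higher in Mock tumours, Alas2 by 4.18, with a list mean of 5.20 to 5.31 at day 3 and 6.37 to 6.499 at day 7. Their part in the fall of the mitosis genes was not tested.

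The fall in Mock tumours was not called different from that in untreated tumours. Mock and untreated tumours had 0 of the 50 genes called at either day by limma, and 0% of all genes. At day 3 the count at an unadjusted p under 0.05 was also 0. At day 7 the difference of Mock minus untreated was below 0 in 47 of the 50 genes, with a median of -0.28, and 16 genes were lower at an unadjusted p under 0.05, as were 5.14% of all genes. Bright genes as a whole were below 0 there too, with medians of -0.07, -0.12 and -0.15 in bins 8 to 10 of the 10 bins by brightness described below. Relative to their bin the median of the 50 was -0.20, and 47 lay below the bin median. After the second quantile normalization the median difference was -0.22. Across the days, Mock fell by more than untreated in 45 genes, and in this difference 43 lay below the median of their bin, by a median of -0.25. The test of this difference between days called 0 of the 50 and 0% of all genes in either direction, and 8 were lower at an unadjusted p under 0.05, as were 2.13% of all genes. With both arrays that stood apart left out, 9 of the 50 were called lower in Mock at day 7, beside 1.87% of all genes called in either direction, and with either left out alone there were 0. Those arrays were picked after their values had been seen, and Mock day 7 replicate 1 has the highest mean of the 50 genes in its group (6.86, against 6.36 to 6.62).

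The difference between IL-12TD and Mock tumours changed with the day in 38 genes. It narrowed in 37 and widened in 1, Cep152, where 24.1% of all genes moved up and 18.4% down between the days in this test. Narrowed here means that the log2 difference moved up. In Smc4 it went past 0, from -0.58 to 0.70, and was not smaller at day 7. The difference of Top2a went from -0.91 to 0.23. The median change of the difference was 0.88. Relative to genes of like mean brightness, as described below, the median was 0.52. These 37 genes were picked by that narrowing, so what follows describes them. In 32 of the 37 genes the fall in Mock tumours was larger than the rise in IL-12TD tumours, and in 5 the reverse held. Over the 37, the median change was -0.92 in Mock and 0.09 in IL-12TD tumours. Mock tumours were called lower by day in 33 of them. IL-12TD tumours were called higher in 9, lower in 7 and neither in 21. Thus the smaller difference at day 7 went with a lower level in Mock tumours in most of these genes. Without both arrays that stood apart, 41 narrowed and 1 widened, beside 49.8% of all genes called in either direction (42.5% with all arrays). With the second quantile normalization 25 narrowed and 3 widened, with a median change of 0.56, beside 25.1% of all genes called in either direction. Calls of narrowing lost there were those of Aurka, Plk1, Aurkb, Bub1, Mad2l1, Ccna2, Espl1, Cenpf, Kif22, Ncapg, Smc2, Prc1 and Tpx2. Kif20b gained a call of narrowing, while Cdc20 (-0.78) and Birc5 (-0.72) gained calls of widening.

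**Figure D3:**
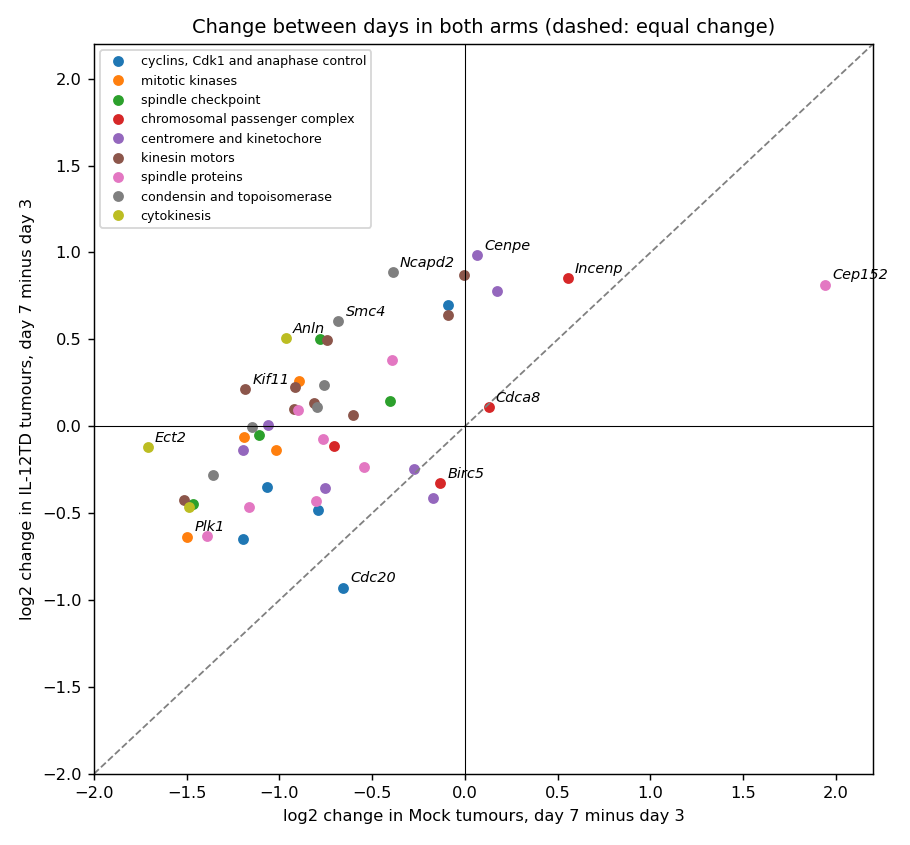
Log2 change from day 3 to day 7 in Mock tumours (horizontal axis) against that in IL-12TD tumours (vertical axis), 1 point for each of the 50 genes, coloured by role; on the dashed line both arms change equally. Most points lie above the line and left of 0, where Mock fell by more than IL-12TD, and Cep152 lies far to the right at 1.94 in Mock and 0.82 in IL-12TD tumours.

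Genes for entry into mitosis and its end were read first. Cdk1, its cyclins Ccna2 and Ccnb2, the anaphase activator Cdc20 and the separase Espl1 were all lower in IL-12TD than in Mock tumours at day 3. At day 7, 4 of the 5 were lower, all but Ccna2 (-0.36 ± 0.14). Cdk1 had differences of -1.09 ± 0.12 at day 3 and -0.78 ± 0.12 at day 7, and Ccnb2 had -1.29 ± 0.16 and -0.73 ± 0.16. Cdk1, Ccna2, Ccnb2 and Cdc20 fell from day 3 to day 7 in all 3 arms, with Cdk1 changes of -0.47 in untreated, -0.79 in Mock and -0.48 in IL-12TD tumours. The second quantile normalization ended the calls of Cdk1 in untreated tumours (-0.14) and of Cdc20 in untreated and Mock tumours.

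Espl1, which cuts the rings that hold sister chromatids together, had at day 3 6.96, 6.66, 7.08 and 6.92 in untreated tumours, 6.62, 6.82, 6.66 and 7.01 in Mock and 5.27, 5.58, 5.64 and 4.99 in IL-12TD. Its day 7 values were 7.10, 6.67, 6.21 and 7.33 in untreated tumours, 7.00, 6.75, 6.75 and 6.25 in Mock and 6.18, 5.98, 6.08 and 6.02 in IL-12TD. On both days the IL-12TD arrays lay below all arrays of the other arms, but at day 7 they stood higher than at day 3. The difference from Mock was -1.41 ± 0.19 at day 3 (adjusted p = 1.53e-06) and -0.62 ± 0.19 at day 7 (0.0177). Without Mock day 7 replicate 1 the day 7 value was -0.52, with an adjusted p of 0.0505.

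Cdc20, which switches on the anaphase-promoting complex, read at day 3 7.48, 7.52, 7.54 and 7.62 in untreated tumours, 7.24, 7.68, 7.59 and 7.45 in Mock and 6.51, 6.68, 6.95 and 6.90 in IL-12TD. At day 7 it read 6.71, 6.94, 7.14 and 6.62 in untreated tumours, 6.52, 6.73, 6.87 and 7.21 in Mock and 5.75, 6.22, 5.58 and 5.79 in IL-12TD. All 3 arms were lower at day 7, and the IL-12TD arrays were the lowest on both days. After the second quantile normalization the change by day was -0.31 in Mock (adjusted p = 0.18) and -0.42 in untreated tumours (0.0796). Its difference from Mock was -0.72 ± 0.15 at day 3 (adjusted p = 0.000466) and -0.997 ± 0.15 at day 7 (1.96e-05), a change between days that was not called (adjusted p = 0.303). Under the second quantile normalization the day 3 difference was -0.40 with an adjusted p of 0.0966.

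The mitotic kinases Plk1, Aurka, Nek2 and Melk were all lower in IL-12TD than in Mock tumours at day 3, by -1.50, -1.44, -1.65 and -1.31. At day 7 the differences of Plk1 (-0.64), Aurka (-0.56) and Nek2 (-0.49) were called. All 4 narrowed between the days. Plk1, which acts at centrosomes, kinetochores and the midbody, fell by day in every arm, by -1.25 in untreated, -1.50 in Mock and -0.64 in IL-12TD tumours.

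Nek2, a kinase of centrosome separation, had day 3 values of 7.63, 7.26, 7.29 and 7.35 in untreated tumours, 7.33, 7.28, 7.34 and 7.39 in Mock and 5.38, 5.99, 5.64 and 5.72 in IL-12TD. By day 7 they were 6.75, 6.66, 6.56 and 6.67 in untreated tumours, 6.65, 6.52, 6.45 and 6.14 in Mock and 5.74, 6.13, 5.85 and 6.07 in IL-12TD. The untreated and Mock arrays came down toward the IL-12TD arrays, and the groups still did not overlap. The difference of -1.65 ± 0.13 at day 3 (adjusted p = 2.73e-10) became -0.49 ± 0.13 at day 7 (0.00726).

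Melk, a kinase with high levels in dividing cells, had 6.03, 6.45, 6.70 and 6.14 in untreated tumours, 6.19, 6.32, 6.58 and 6.64 in Mock and 5.21, 5.01, 5.11 and 5.17 in IL-12TD at day 3. The day 7 values were 5.70, 5.47, 5.84 and 5.36 in untreated tumours, 5.59, 5.29, 5.30 and 4.79 in Mock and 5.23, 5.01, 4.99 and 5.03 in IL-12TD. The lowest Mock array of day 7 lay below every IL-12TD array. The difference was -1.31 ± 0.16 at day 3 (adjusted p = 3.41e-07) and -0.18 ± 0.16 at day 7 (0.428, not called).

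Among the spindle checkpoint genes, Bub1, Bub1b, Ttk and Mad2l1 were all lower in IL-12TD than in Mock tumours at day 3 and 3 of the 4 at day 7. Mad2l1, which binds and holds Cdc20, had -1.25 ± 0.17 at day 3 and -0.24 ± 0.17 at day 7, the latter not called. Bub1b, a subunit of the same checkpoint complex, had one of the largest falls at day 3 (-1.80 ± 0.14) and was at -0.52 ± 0.14 at day 7. It rose by 0.50 between the days in IL-12TD tumours while it fell in Mock (-0.78).

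Bub1, a kinetochore kinase of the checkpoint, gave 8.30, 8.86, 8.67 and 8.46 in untreated tumours, 8.32, 8.46, 8.61 and 8.82 in Mock and 6.62, 6.499, 6.77 and 6.87 in IL-12TD at day 3. It gave 7.86, 7.78, 8.38 and 7.50 in untreated tumours, 7.85, 7.47, 6.89 and 7.56 in Mock and 6.82, 6.41, 6.94 and 6.39 in IL-12TD at day 7. The IL-12TD arrays covered much the same range on both days, and at day 7 the lowest Mock array (6.89) reached into their range. The difference was -1.86 ± 0.19 at day 3, a 3.64-fold lower level (adjusted p = 1.86e-08), and -0.80 ± 0.19 at day 7 (0.00257).

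Ttk, the kinase that starts checkpoint signalling, measured 5.39, 5.46, 5.57 and 5.51 in untreated tumours, 5.20, 5.37, 5.33 and 5.64 in Mock and 4.22, 4.51, 4.42 and 4.61 in IL-12TD at day 3. At day 7 it measured 5.22, 4.92, 4.88 and 5.21 in untreated tumours, 5.21, 5.04, 4.95 and 4.72 in Mock and 4.64, 4.55, 4.502 and 4.64 in IL-12TD. Its groups were narrow and the IL-12TD arrays were lowest on both days. The difference was -0.94 ± 0.12 at day 3 (adjusted p = 1.22e-06) and -0.40 ± 0.12 at day 7 (0.022). The second quantile normalization ended the day 7 call (adjusted p = 0.0519). So did leaving out Mock day 7 replicate 1 (0.0653), replicate 2 of that group (0.0589) or IL-12TD day 7 replicate 3 (0.0621).

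The chromosomal passenger complex corrects faulty attachments of chromosomes and marks the site of division. Its kinase Aurkb and the subunits Birc5 (survivin), Cdca8 (borealin) and Incenp were lower in IL-12TD than in Mock tumours on both days, 4 of 4 each time. Only Aurkb narrowed between the days (by 0.59), and under the second quantile normalization this was 0.07 and not called. Cdca8 had -1.13 ± 0.16 at day 3 and -1.15 ± 0.16 at day 7. Incenp, the scaffold of the complex, had -1.17 ± 0.16 and -0.87 ± 0.16. Incenp rose by day in all 3 arms, by 0.62 in untreated, 0.55 in Mock and 0.85 in IL-12TD tumours. Birc5 and Cdca8 were not called between the days in any arm.

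Aurkb measured 8.91, 9.05, 9.15 and 8.87 in untreated tumours, 8.80, 8.98, 8.94 and 9.04 in Mock and 7.76, 7.57, 7.64 and 7.83 in IL-12TD at day 3. At day 7 the values were 8.56, 8.46, 8.54 and 8.54 in untreated tumours, 8.55, 8.16, 7.99 and 8.22 in Mock and 7.58, 7.50, 7.67 and 7.59 in IL-12TD. The IL-12TD arrays stayed between 7.50 and 7.83 on both days, below every array of the other arms. Its difference was -1.24 ± 0.11 at day 3 (adjusted p = 3.38e-09) and -0.65 ± 0.11 at day 7 (0.000114). The fall by day in Mock (-0.71) was -0.22 and not called under the second quantile normalization (adjusted p = 0.0627).

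Birc5 gave 6.95, 7.12, 7.14 and 7.26 in untreated tumours, 7.47, 7.39, 7.26 and 7.05 in Mock and 6.28, 6.78, 6.78 and 6.43 in IL-12TD at day 3. Its day 7 readings were 7.22, 7.11, 7.00 and 7.59 in untreated tumours, 7.19, 7.38, 7.28 and 6.78 in Mock and 6.39, 6.26, 6.24 and 6.06 in IL-12TD. The untreated and Mock arrays overlapped on both days, and IL-12TD arrays lay below them. The difference was -0.72 ± 0.15 at day 3 (adjusted p = 0.000348) and -0.92 ± 0.15 at day 7 (4.03e-05). With the second quantile normalization the day 3 value was -0.40 (adjusted p = 0.0587).

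**Figure D4:**
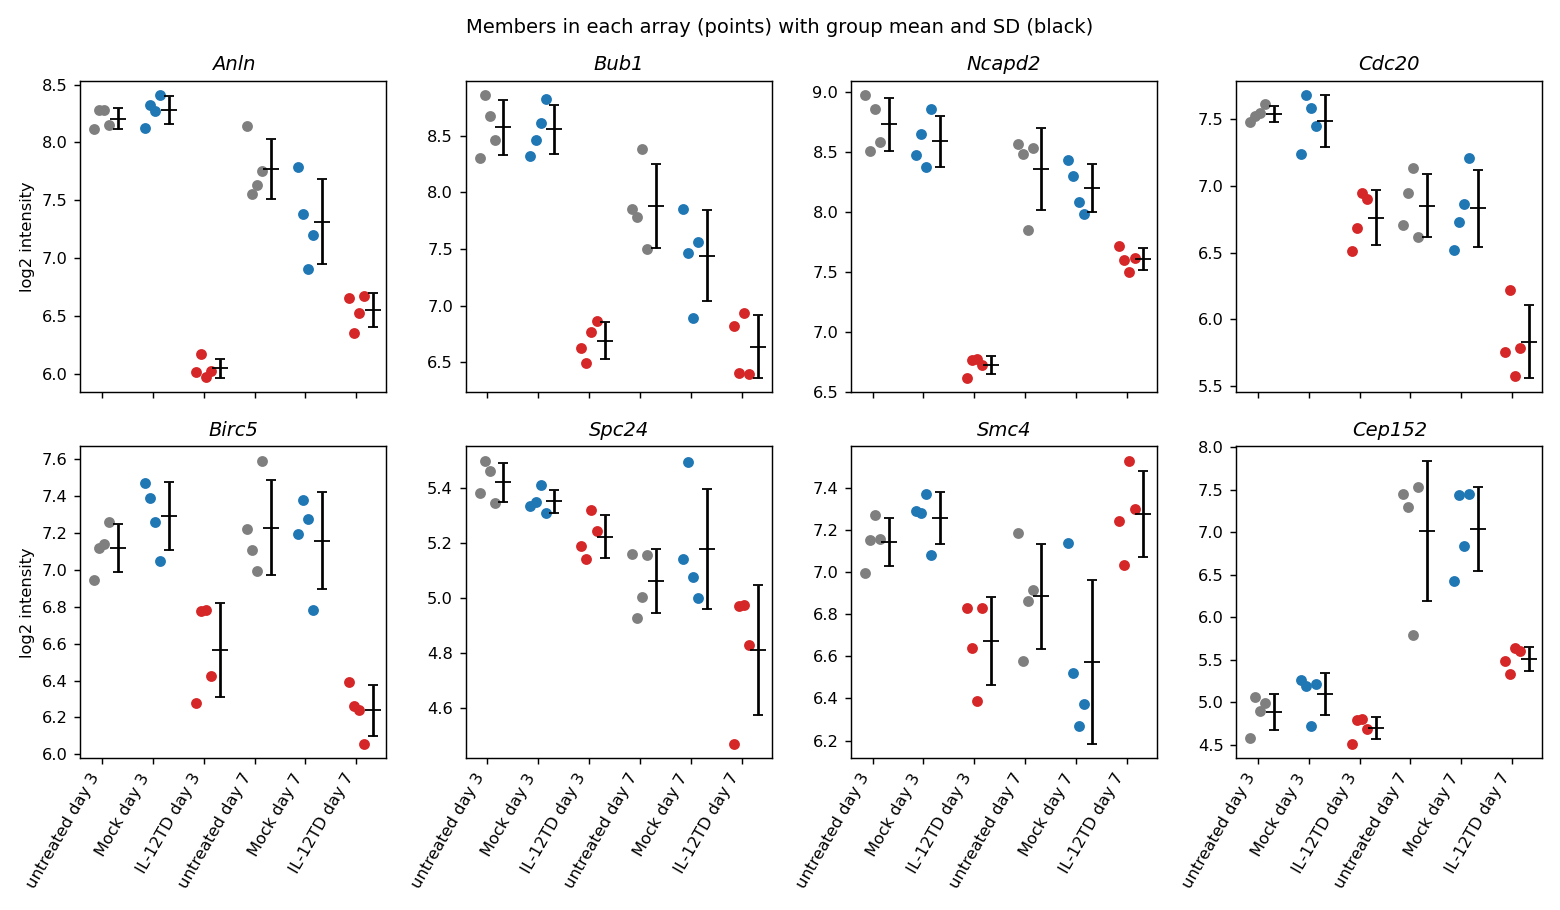
Log2 intensity of 8 of the genes in each of the 24 arrays (points), with the group mean and SD in black. Anln, Bub1 and Ncapd2 show the large day 3 fall, Cdc20 and Birc5 keep a difference at day 7, Spc24 hardly differs at day 3, Smc4 changes direction, and Cep152 rises by day.

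Of the 7 centromere and kinetochore genes, 6 were lower in IL-12TD than in Mock tumours at day 3 and 5 at day 7. Cenpa, the histone variant that marks centromeres, had -0.98 ± 0.13 at day 3 and -0.58 ± 0.13 at day 7. Cenpe, a kinesin of the kinetochore, had -1.39 ± 0.16 and -0.47 ± 0.16, and Cenpf, a large kinetochore protein, had -1.26 ± 0.14 and -0.66 ± 0.14. Cenpe and Cenpf rose by day in IL-12TD tumours, by 0.98 and 0.78, and were not called between the days in Mock tumours.

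The Ndc80 complex, which grips microtubules, is built from Ndc80, Nuf2, Spc24 and Spc25. Its members did not move by the same amount. At day 3 Nuf2 and Spc25 had differences of -1.46 ± 0.17 and -1.41 ± 0.19, Ndc80 had -0.45 ± 0.12, and Spc24 had -0.13 ± 0.12, which was not called. The day 7 calls were on Ndc80 (-0.42 ± 0.12) and Spc24 (-0.37 ± 0.12), while Nuf2 (-0.39 ± 0.17) and Spc25 (-0.35 ± 0.19) were not called. The probesets are different for each gene, and whether they respond alike to a given change was not tested.

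Nuf2 read 6.0, 6.61, 6.51 and 6.36 in untreated tumours, 6.37, 6.15, 6.64 and 6.56 in Mock and 4.87, 5.08, 4.89 and 5.05 in IL-12TD at day 3. At day 7 it read 5.996, 5.49, 5.58 and 5.95 in untreated tumours, 5.98, 5.35, 5.14 and 4.98 in Mock and 4.94, 5.01, 5.02 and 4.95 in IL-12TD. Mock day 7 values ran down to 4.98, inside the IL-12TD range of 4.94 to 5.02. The adjusted p was 1.93e-07 at day 3 and 0.103 at day 7, and 0.0414 at day 7 without Mock day 7 replicate 4.

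Spc24 gave 5.38, 5.50, 5.46 and 5.35 in untreated tumours, 5.34, 5.35, 5.41 and 5.31 in Mock and 5.19, 5.14, 5.32 and 5.24 in IL-12TD at day 3. It gave 5.16, 4.93, 5.00 and 5.16 in untreated tumours, 5.14, 5.50, 5.08 and 5.00 in Mock and 4.47, 4.97, 4.97 and 4.83 in IL-12TD at day 7. At day 3 the highest IL-12TD array lay within the Mock values, and at day 7 all IL-12TD arrays lay below them. The 95% interval of the day 3 difference ran from -0.37 to 0.12 (adjusted p = 0.392). The day 7 call (adjusted p = 0.028) ended when Mock day 7 replicate 2 (0.143), IL-12TD day 7 replicate 1 (0.152) or replicate 4 of the latter group (0.0573) was left out, and in a fit on both groups alone (0.0949).

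All 9 kinesin motors were lower in IL-12TD than in Mock tumours at day 3, with a median of -1.48, and 3 of them at day 7 with a median of -0.38. Kif11, which slides spindle poles apart, had -1.74 ± 0.15 at day 3, Kif4, a motor on chromosome arms, had -1.78 ± 0.15, and Kif23, a motor of the central spindle, had -1.62 ± 0.15. Kif20a, which carries the passenger complex to the central spindle, had -1.48 ± 0.16. Kif18a, which damps chromosome movement, had -1.13 ± 0.18, Kif20b had -1.23 ± 0.22 and Kif22, a motor on chromosomes, had -1.25 ± 0.14. The 3 called at day 7 were Kif2c (-0.86), Kif4 (-0.64) and Kif22 (-0.58). Kif11 fell by -1.19 in Mock between the days and was at 0.21 in IL-12TD tumours, so its difference narrowed by 1.40.

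Kif2c, which takes microtubules apart at centromeres, had day 3 values of 7.23, 7.32, 7.23 and 7.23 in untreated tumours, 7.16, 7.41, 7.14 and 7.49 in Mock and 5.51, 5.47, 5.25 and 5.47 in IL-12TD. Those of day 7 were 6.78, 6.46, 6.37 and 6.88 in untreated tumours, 6.68, 6.47, 6.30 and 6.08 in Mock and 5.58, 5.54, 5.53 and 5.44 in IL-12TD. The IL-12TD arrays held one level, from 5.25 to 5.58 over both days, and no array of another arm reached it. The difference was -1.88 ± 0.13 at day 3, 3.67-fold lower (adjusted p = 2e-11), and -0.86 ± 0.13 at day 7 (1.6e-05).

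Kif15, which can share the work of Kif11, was at 6.03, 6.39, 6.31 and 6.12 in untreated tumours, 6.18, 6.38, 5.97 and 6.42 in Mock and 5.09, 5.00, 5.03 and 5.35 in IL-12TD at day 3. It was at 7.03, 6.48, 6.48 and 6.86 in untreated tumours, 6.96, 6.13, 5.89 and 5.96 in Mock and 6.05, 5.93, 5.91 and 6.05 in IL-12TD at day 7. IL-12TD tumours rose by 0.87 between the days, and untreated tumours by 0.50. Mock arrays ran from 5.89 to 6.96 at day 7 and overlapped the IL-12TD arrays. The difference was -1.12 ± 0.18 at day 3 (adjusted p = 1.39e-05) and -0.25 ± 0.18 at day 7 (0.316).

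Other spindle proteins were lower in 7 of 8 cases at day 3 and also in 7 of 8 at day 7. Tpx2, which activates Aurka on the spindle, had -1.42 ± 0.13 at day 3 and -0.72 ± 0.13 at day 7. Prc1, which bundles the microtubules of the central spindle, had -1.40 ± 0.16 and -0.63 ± 0.16. Nusap1 and Dlgap5, which stabilise spindle microtubules, had -0.89 and -1.07 at day 3 and kept -0.52 and -0.76 at day 7. The microtubule-associated Ckap2 had -1.34 and -0.65. Hmmr, a spindle pole protein, had -1.09 ± 0.17 at day 3 and was not called at day 7 (-0.33 ± 0.17).

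Gtse1, a microtubule-binding protein, had 7.26, 7.65, 7.60 and 7.24 in untreated tumours, 7.24, 7.44, 7.42 and 7.77 in Mock and 5.89, 6.04, 5.66 and 5.83 in IL-12TD at day 3. The values at day 7 were 6.79, 7.08, 6.57 and 6.90 in untreated tumours, 6.93, 6.61, 6.49 and 6.25 in Mock and 6.20, 5.96, 5.83 and 5.81 in IL-12TD. IL-12TD arrays lay below the other arms on both days. The difference was -1.61 ± 0.15 at day 3 (adjusted p = 4.96e-09) and -0.62 ± 0.15 at day 7 (0.00345).

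Cep152, a scaffold of centriole duplication, rose from day 3 to day 7 where most of the 50 genes fell. At day 3 it read 4.58, 5.06, 4.90 and 4.99 in untreated tumours, 5.26, 5.19, 4.72 and 5.22 in Mock and 4.51, 4.79, 4.81 and 4.69 in IL-12TD. At day 7 it read 7.45, 7.30, 5.79 and 7.54 in untreated tumours, 6.43, 7.44, 6.84 and 7.45 in Mock and 5.49, 5.33, 5.64 and 5.60 in IL-12TD. Every arm was higher at day 7, by 2.13 ± 0.26 in untreated, 1.94 ± 0.26 in Mock and 0.82 ± 0.26 in IL-12TD tumours. One untreated array at day 7, replicate 3, stayed at 5.79 while the others were at 7.30 or above. The difference from Mock was -0.40 ± 0.26 at day 3 (95% interval -0.93 to 0.13, adjusted p = 0.211) and -1.52 ± 0.26 at day 7 (7.66e-05). In a fit on the day 3 Mock and IL-12TD arrays alone the day 3 adjusted p was 0.0354.

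**Figure D5:**
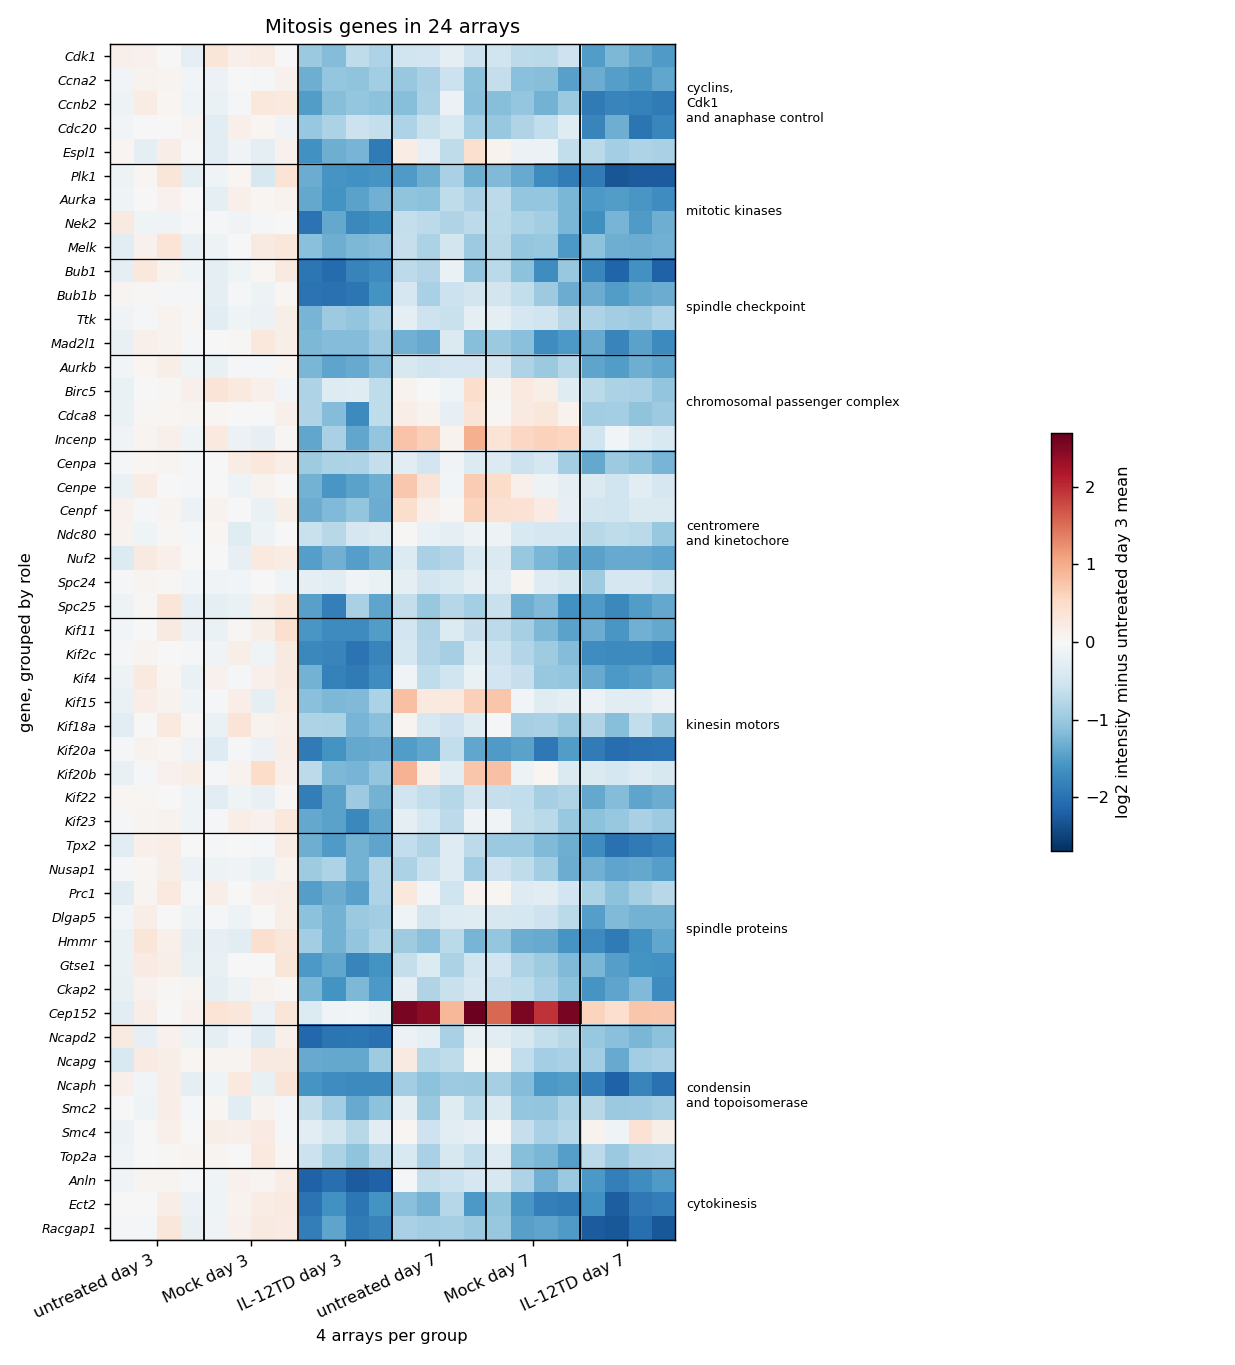
Log2 intensity of each of the 50 genes (rows, grouped by role) in each of the 24 arrays (columns), minus the gene's mean in untreated tumours at day 3; blue is lower and red is higher. The IL-12TD columns are blue on both days for most rows, the untreated and Mock columns turn pale blue at day 7, and Cep152 turns red at day 7.

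The condensin and topoisomerase genes were lower in IL-12TD than in Mock tumours at day 3 in 6 of 6 cases. At day 7, Ncapd2 and Ncaph were lower, Smc4 was higher, and the other 3 were not called. Ncaph and Ncapg, subunits of condensin along with Ncapd2, had -1.75 ± 0.14 and -1.42 ± 0.21 at day 3. Smc2, the partner of Smc4 in every condensin, had -0.98 ± 0.17 at day 3 and -0.07 ± 0.17 at day 7. In all 6 the difference moved up between the days, by 0.91 in Smc2 up to 1.29 in Smc4. Those of Smc4 and Top2a ended above 0.

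Top2a, the enzyme that untangles sister chromatids, had -0.91 ± 0.16 at day 3 (adjusted p = 8.69e-05) and 0.23 ± 0.16 at day 7 (0.318, not called). Its group means were 8.26 ± 0.12 (SD) in Mock and 7.35 ± 0.21 in IL-12TD tumours at day 3, and 7.12 ± 0.49 and 7.35 ± 0.12 at day 7. Thus IL-12TD tumours held their level while Mock tumours fell past it by -1.15. The dimmer second probeset of Top2a lay at 2.14 in untreated and 2.24 in Mock tumours at day 3 and was not used.

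Ncapd2 was at 8.98, 8.51, 8.86 and 8.59 in untreated tumours, 8.47, 8.65, 8.38 and 8.86 in Mock and 6.62, 6.77, 6.78 and 6.73 in IL-12TD at day 3. It was at 8.57, 8.48, 7.85 and 8.53 in untreated tumours, 8.43, 8.30, 8.09 and 7.99 in Mock and 7.72, 7.60, 7.50 and 7.62 in IL-12TD at day 7. At day 3 the IL-12TD arrays lay far below every other array, and at day 7 they had risen by 0.89. The difference was -1.87 ± 0.15 at day 3 (adjusted p = 2.46e-10) and -0.59 ± 0.15 at day 7 (0.00443). The fall by day in Mock (-0.39, adjusted p = 0.0291) was lost when Mock day 3 replicate 2 (adjusted p = 0.0593), Mock day 3 replicate 4 (0.118), Mock day 7 replicate 3 (0.0763) or Mock day 7 replicate 4 (0.0961) was left out.

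Smc4 gave 7.00, 7.15, 7.27 and 7.16 in untreated tumours, 7.29, 7.28, 7.37 and 7.08 in Mock and 6.83, 6.64, 6.39 and 6.83 in IL-12TD at day 3. It gave 7.19, 6.58, 6.86 and 6.92 in untreated tumours, 7.14, 6.52, 6.27 and 6.37 in Mock and 7.24, 7.04, 7.53 and 7.30 in IL-12TD at day 7. At day 7 the Mock array of replicate 1 (7.14) lay within the IL-12TD values and the other 3 lay below them. The difference was -0.58 ± 0.16 at day 3 (adjusted p = 0.00442) and 0.70 ± 0.16 at day 7 (0.00188), with a called change between the days (adjusted p = 0.000149). Under the second quantile normalization the day 3 difference was -0.27 and not called (adjusted p = 0.159).

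The cytokinesis genes Anln, Ect2 and Racgap1 had the lowest median of any role at day 3, -1.91. Anln (anillin) scaffolds the contractile ring, Ect2 activates the GTPase RhoA at the cleavage site, and Racgap1 joins Kif23 in the complex that recruits Ect2. Ect2 had -1.91 ± 0.17 at day 3 and -0.32 ± 0.17 at day 7, the latter not called, and fell by -1.71 in Mock tumours between the days.

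Anln measured 8.11, 8.28, 8.28 and 8.15 in untreated tumours, 8.12, 8.32, 8.27 and 8.41 in Mock and 6.02, 6.17, 5.97 and 6.03 in IL-12TD at day 3. At day 7 it measured 8.15, 7.56, 7.63 and 7.75 in untreated tumours, 7.78, 7.38, 6.90 and 7.20 in Mock and 6.66, 6.35, 6.53 and 6.67 in IL-12TD. IL-12TD arrays lay below all others on both days, and rose by 0.51 between them while Mock arrays fell by 0.96 on the log2 scale. The difference was -2.24 ± 0.15 at day 3, 4.71-fold lower (adjusted p = 5.56e-12), and -0.76 ± 0.15 at day 7 (0.00032).

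Racgap1 had 8.07, 8.09, 8.43 and 7.93 in untreated tumours, 8.04, 8.24, 8.36 and 8.35 in Mock and 6.25, 6.72, 6.22 and 6.33 in IL-12TD at day 3. Day 7 values were 7.26, 7.20, 7.24 and 7.14 in untreated tumours, 7.10, 6.65, 6.71 and 6.59 in Mock and 5.88, 5.84, 6.10 and 5.84 in IL-12TD. All 3 arms were lower at day 7, with changes of -0.92 in untreated, -1.49 in Mock and -0.46 in IL-12TD tumours. The difference was -1.87 ± 0.13 at day 3 (adjusted p = 3.32e-11) and -0.85 ± 0.13 at day 7 (2.64e-05).

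By role, the day 3 difference from Mock was largest in the cytokinesis genes and the checkpoint (medians -1.91 and -1.53) and smallest in Cdk1, its partners and the anaphase genes (-1.09). At day 7 the passenger complex and the cytokinesis genes had the lowest medians (-0.89 and -0.76), and the condensin genes were nearest to 0 (-0.25). Between the days the median change in Mock tumours was 0.00 in the passenger complex, where Aurkb fell and Incenp rose, and -1.49 in the cytokinesis genes. The difference narrowed, that is moved up, in 4 of 4 kinases, 4 of 4 checkpoint genes, 8 of 9 kinesins, 6 of 6 condensin genes and 3 of 3 cytokinesis genes. It narrowed in 2 of 5 genes of the Cdk1 group, 1 of 4 of the passenger complex, 4 of 7 kinetochore genes and 5 of 8 other spindle genes. Of all genes, 24.1% moved up. Under the second quantile normalization the kinases lost Plk1 and Aurka, the checkpoint Bub1 and Mad2l1, and the condensin genes Ncapg and Smc2. Kinesins lost Kif22 and gained Kif20b. The Cdk1 group lost Ccna2 and Espl1, the passenger complex Aurkb, the kinetochore genes Cenpf, and the other spindle genes Prc1 and Tpx2. No test was made between roles.

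In Mock and in untreated tumours alike, 34 of the 50 were lower at day 7, against 21.4% of all genes, and 12 were lower in all 3 arms, against 9.21%. Bub1b, Kif23, Ncapd2, Smc4 and Anln fell in Mock tumours and rose in IL-12TD tumours, as did 3.5% of all genes. These joint counts were not made under the second quantile normalization. There 21 were lower by day in untreated and 33 in Mock tumours, and the Mock change of Ncapd2 was 0.09 and not called. Within groups, the deviations from the group means over the 24 arrays had a median correlation of 0.31 over 1225 pairs of the 50 genes. Of these pairs, 982 were above 0. The same value was not computed for other genes, so whether it is particular to the 50 was not tested. These pairs share the same arrays.

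Bright genes as a whole were lower in IL-12TD than in Mock tumours at day 3, so the 50 genes were also set beside genes of like mean brightness, all genes being split by it into 10 bins of like size, a description added after the results had been seen. At day 3 all 50 lay below the median of their bin, by a median of -1.07, and at day 7 48 did, by -0.62. For the change by day, 41 lay below it in Mock tumours (-0.50), 37 in untreated (-0.33) and 30 in IL-12TD tumours (-0.05). Bright genes also moved up between the days in the difference of IL-12TD minus Mock. The medians of all genes were 0.38, 0.48, 0.51 and 0.44 in bins 7 to 10, the brightest bins. In that test 11 of the 50 lay below the median of their bin, and the median distance from it was 0.52.

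Other genes of cell division were read from further lists. Against Mock, 25.9% of all genes were lower in IL-12TD tumours and 17.3% higher at day 3, with 8.83% and 12.9% at day 7. Of 65 other mitosis genes, 60 were lower in IL-12TD than in Mock tumours at day 3 and none was higher, with Pbk at -1.80, Mastl at -1.77 and Kntc1 at -1.73. Mki67, the antigen used to count dividing cells, was at -1.44 ± 0.15 (adjusted p = 4.37e-08). At day 7, 30 were lower and 4 higher, and Mki67 was at -0.71 ± 0.15 (adjusted p = 0.00116). All 39 DNA replication genes were lower at day 3 (median -1.13, Mcm2 -1.68 ± 0.16), and at day 7 10 were lower and 1 higher (median -0.18). Between the days, Mock tumours had 41 of the other mitosis genes lower and 4 higher, and 34 of the replication genes lower and 1 higher. Of all genes, 27.1% were lower and 23.8% higher by day in Mock tumours.

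Of 26 transcription factors and inhibitors of the cell cycle, 14 were lower and 2 higher in IL-12TD than in Mock tumours at day 3. The shares of all genes were 25.9% lower and 17.3% higher. Foxm1, an activator of late cell cycle genes, was at -1.25 ± 0.15 (adjusted p = 5.22e-07), and Mybl2, its partner on CHR promoters, at -0.84 ± 0.14 (2.21e-05). The antiproliferative gene Btg2 was higher, at 1.17. At day 7, 6 were lower and 4 higher, beside 8.83% and 12.9% of all genes, so the number higher was near the share of all genes. Foxm1, Mybl2, E2f1, E2f7, Tfdp1 and the inhibitor Cdkn1c were lower, with Foxm1 at -0.63, Mybl2 at -0.63 and Cdkn1c at -0.46. Rb1, Rbl1, Rbl2 and Cdkn2c, which hold back the cycle, were higher, with Rb1 at 1.46 and Cdkn2c at 1.43, and the inhibitors Cdkn1b, Cdkn2a, Cdkn2d and Btg2 were not called. Foxm1 and Mybl2 were not called between the days in Mock tumours (-0.13 and 0.065). Ccnb1 and Cdkn1a had no single-gene probeset and are not given.

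Markers of other cells were read in the same comparisons of IL-12TD with Mock tumours. Of all genes, 25.9% were called lower and 17.3% higher at day 3, and 8.83% and 12.9% at day 7. The 14 melanocyte markers had 9 lower and none higher in IL-12TD than in Mock tumours at day 3, and 1 lower and 1 higher at day 7. Their mean ran from 9.89 to 10.00 in Mock and from 9.34 to 9.52 in IL-12TD arrays at day 3, and from 9.27 to 10.14 and from 9.49 to 9.93 at day 7. All 12 pan-leukocyte markers were higher in IL-12TD tumours on both days, with a mean of 6.47 to 6.93 in Mock and 7.98 to 8.31 in IL-12TD arrays at day 3, and 5.995 to 6.73 and 7.56 to 8.04 at day 7. Of 13 T cell markers 12 were higher at day 3 and 9 at day 7, Cd8a by 3.00 and 2.06. Of 10 neutrophil markers 9 were higher at day 3 and 1 at day 7, with a list mean of 4.15 to 4.28 in Mock and 5.72 to 6.77 in IL-12TD arrays at day 3. Of 8 endothelial markers 5 were lower and 1 higher at day 3, and 2 lower and 1 higher at day 7. Of 5 erythroid markers 1 was lower at day 3, near the share of all genes, and 3 at day 7, with Alas2 at -2.46. Of 8 fibroblast markers 2 were lower and 1 higher at day 3 and 1 each way at day 7. These fibroblast counts were near the shares of all genes. Taken relative to the melanocyte markers of the same array, the mean of the 50 genes was -2.66 ± 0.08 (SD) in Mock and -3.43 ± 0.11 in IL-12TD arrays at day 3, and -3.02 ± 0.18 and -3.71 ± 0.17 at day 7, without overlap on either day. The part of these cells in the fall of the 50 genes was not tested.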

How the data were processed

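Tumour RNA was measured on 24 Affymetrix arrays. The deposited log2 values of 35556 probesets were made with RMA (robust multi-array average), per the submitters' processing notes. Its version, and whether all arrays were normalized jointly, are not given in the sources used here. Of the probesets, 21789 list a single gene, 1621 several and 12146 none. The single-gene probesets gave 19938 genes, taking the brightest mean probeset for the 999 genes with more than 1, and 21698 of those probesets were matched by gene ID to RefSeq. No pair of arrays held identical values. Groups come from the titles. The treatment text of the Mock day 7 arrays names 3 days, while their titles and other labels say 7, so they were placed at day 7.

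A mean for each of 6 groups was fitted over all 24 arrays with limma 3.58.1 in R 4.3.3 (lmFit, eBayes with its default prior, no filter on dim genes), and 11 comparisons were tested, two-sided, with Benjamini-Hochberg adjustment over all genes at 0.05. The script was tested on simulated data. Replicate numbers did not pair the samples: deviations from the group means correlated at a mean r of 0.011 for equal numbers and -0.004 for unequal ones. Genes given with values in every array were, in each role, those with the largest and the smallest difference between IL-12TD and Mock tumours at day 3, and the printed promoters follow the same difference. The number of promoters was set after the motif positions were known. The members and lists were chosen with earlier results of these data known. Alternatives were a second quantile normalization, median centring, a dim-gene filter, array weights, another prior, the mean of probesets, the compared groups alone, a replicate block and leaving out arrays.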

Additional observations from a re-analysis of the deposited data

Results flagged for a closer look

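Of 114 groups of 4 arrays screened, 8 had an array whose gap to its nearest neighbour took up more of the group's range than Dixon's 95% critical value allows, and chance flags about 1 group in 20. Untreated day 7 replicate 3 was low for Cep152 at 5.79 (the others were at 7.30 to 7.54) and for Ncapd2 at 7.85 (8.48 to 8.57). Mock day 3 replicate 3 was low for Cep152 at 4.72 (5.19 to 5.26). Kif2c was high in untreated day 3 replicate 2 at 7.32 and low in IL-12TD day 3 replicate 3 at 5.25. Melk was high in IL-12TD day 7 replicate 1 at 5.23, and Racgap1 in IL-12TD day 7 replicate 3 at 6.10. The mean over the 50 genes was high in IL-12TD day 3 replicate 4 at 6.07 (5.96 to 5.97 in the others).

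The difference between IL-12TD and Mock tumours changed between the days, by the limma test of that change, in 38 of the 50 genes. Only genes given with values in every array are listed here, and others of the 50 changed by as much. On the log2 scale the change was 1.47 for Anln, 1.29 for Smc4, 1.28 for Ncapd2, 1.16 for Nek2 and 1.13 for Melk. It was 1.07 for Nuf2, 1.06 for Bub1, 1.02 for Racgap1 and Kif2c, 0.99 for Gtse1 and 0.87 for Kif15. Espl1 changed by 0.78, Aurkb by 0.59 and Ttk by 0.55. Cep152 changed the other way, at -1.12.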

How the results depend on the processing

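Leaving out each array in turn gave 48 genes called in IL-12TD against Mock tumours at day 3 and 30 to 39 at day 7, 39 to 42 for Mock and 31 to 37 for untreated tumours by day, 20 to 26 for IL-12TD tumours by day, and 37 to 40 for the change between days. Mock against untreated at day 7 had 9 called without both arrays that stood apart, an alternative chosen after seeing the data, and 0 otherwise. Under the second quantile normalization the share of all genes called fell from 43.2% to 28% at day 3 and from 42.5% to 25.1% for the change between days. The change by day in Mock tumours reversed under that normalization, to 0.20 for Espl1, 0.24 for Birc5, 0.16 for Kif15 and 0.089 for Ncapd2, and of these only Ncapd2 was called at first. The cause was not tested. Leaving out single arrays moved it between -0.19 and 0.056 for Espl1 and between -0.24 and 0.11 for Kif15. The fit with a replicate block gave 48 genes at day 3, 34 at day 7 and 41 for Mock tumours by day, and moved no count of calls by over 1.5 times. Of 900 values of the genes given with values in every array under an alternative, 869 kept direction and call, 19 lost the call, 2 gained it and 10 reversed. With 4 arrays a group, small differences may go uncalled.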
